A study of Homo sapiens with 6 samples.

Results

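The HOXA cluster on chromosome 7 is represented here by 9 genes, HOXA3, HOXA4, HOXA5, HOXA6, HOXA7, HOXA9, HOXA10, HOXA11 and HOXA13, which were selected by name from the 35410 genes of the expression table. They were measured by MACE-Seq, which sequences the 3′ ends of polyadenylated transcripts, in SEM cells, an established line from human proB leukemia that carries the fusion gene KMT2A::AFF1. SEM::mock carried the empty vector and SEM::EGR3 a doxycycline-inducible EGR3 transgene. Both lines received 1 µg/mL doxycycline for 48 h before RNA extraction, so the drug was shared by the groups, and 3 biological replicates were sequenced per line. Only 1 line of each kind was studied, so effects of EGR3 and other differences between the lines cannot be told apart.

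HOXA genes encode homeodomain transcription factors, and their order on the chromosome parallels the order in which they are used along the body axis. In blood, HOXA9 and its neighbours are active in stem and progenitor cells and are shut down during maturation. The KMT2A protein keeps the cluster active in these progenitors, and many KMT2A fusion proteins bind it and maintain HOXA7, HOXA9 and HOXA10 expression. KMT2A::AFF1 leukemias, however, occur with and without high HOXA expression. HOX proteins bind DNA together with cofactors of the TALE class, above all PBX and MEIS proteins, whereas Polycomb complexes keep HOX clusters silent.

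Library totals lay between 5286115 and 6181388 in SEM::mock and between 7293092 and 15106018 counts in SEM::EGR3, so low levels are known less precisely in SEM::mock. Counts given per library below are not scaled for this depth, whereas CPM and fold changes are. EGR3 itself, a zinc finger transcription factor of the early growth response family, had counts of 8, 10 and 6 in SEM::mock, compared with 9768, 4952 and 5557 in SEM::EGR3. Of 15465 genes tested with edgeR's quasi-likelihood test, SEM::EGR3 was higher in 36.5% and lower in 32% at an adjusted p under 0.05, and the libraries of 37.5% did not overlap, with SEM::EGR3 higher. Both lines went against their label of proB cells by high erythroid markers, and SEM::mock also lacked most B lineage markers. Of 18 B lineage markers, 13 had 3 or fewer counts in each SEM::mock library and 6 had 0, among them EBF1 and IGHM. PAX5, the B lineage commitment factor, had 1, 1 and 2 counts there. The summed level of the 18 markers was 157.7 to 186.8 CPM (counts scaled to a common library total, with TMM normalization factors) in SEM::mock, most of it from CD24 and CD74, and 812.6 to 853.4 CPM in SEM::EGR3. Of 14 B lineage markers tested, 13 were higher and 1 lower. The lower one was CD24, with a mean of 143.2 CPM in SEM::mock and 23.4 CPM in SEM::EGR3. Markers at 3 or fewer counts in SEM::mock could be tested only through SEM::EGR3, so this count is a description only. The 18 erythroid markers summed to 5251 to 5604 CPM in SEM::mock and 6369 to 6598 CPM in SEM::EGR3, with HBG2, HBZ, HBA1, HBA2 and GATA1 present in both lines and HBB at or below 3 counts in every library. Of 15 erythroid markers tested, 4 were higher, among them HBZ, HBA1 and HBA2, and 11 lower, among them HBG2 and GATA1. Summed myeloid markers were 298.8 to 307.6 CPM in SEM::mock and 236.2 to 238.6 CPM in SEM::EGR3, with LYZ and CD33 lower and 3 genes, among them CEBPA and ITGAM, higher of 6 tested. T lineage markers summed to 86.8 to 99.2 and 138.2 to 147.4 CPM, with TRAC and LCK among 4 higher and CD3D and TRBC1 among 3 lower of 7 tested. Every HOXA result below rests on these libraries of both lines and cannot be given without them. The part of cell identity in the HOXA results was not tested, and in bulk RNA more cells of a type and more RNA per cell cannot be told apart.

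In SEM::mock, HOXA expression was low and came mainly from HOXA10. In SEM::EGR3, HOXA7, HOXA9 and HOXA10 were all prominent, and HOXA7, without a single count in SEM::mock, was the most abundant member. HOXA3 and HOXA5 were higher in SEM::EGR3 at low levels, HOXA4 was detected in SEM::EGR3 only at a few counts, HOXA11 did not differ beyond its spread, and HOXA6 and HOXA13 stayed at the detection limit of 3 counts per library in both lines. Of the 9 members, 5 passed the filter on low counts and all 5 were called higher, beside 36.5% of all tested genes. HOXA3, HOXA5, HOXA7 and HOXA9 passed the filter only through their level in SEM::EGR3 and could therefore hardly have been called otherwise, so that this count is a description only. HOXA10 passed in both lines. Counts of 3′ ends were not divided by transcript length, and levels are compared between genes on that scale.

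**Figure D1:**
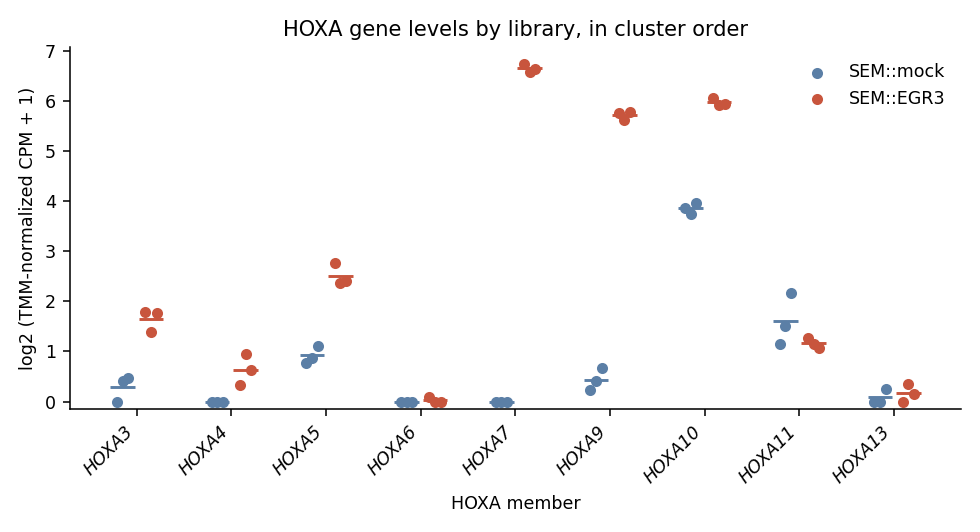
Level of each HOXA member in log2 (TMM-normalized CPM + 1), in the order of the genes along the cluster. Each point is a library, 3 of SEM::mock and 3 of SEM::EGR3, and the bars are group means. HOXA7, HOXA9 and HOXA10 stand far above the other members in SEM::EGR3, whereas HOXA10 alone is prominent in SEM::mock.

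HOXA7, HOXA9 and HOXA10 lie next to each other, and their promoters are shown because these genes made up nearly all HOXA counts of SEM::EGR3. The sequences come from RefSeq (GRCh38.p14) and cover 250 bases before to 50 bases after an annotated start, on the minus strand. Capitals mark the letters GCGNGGGCG, the consensus of EGR proteins, searched on both strands. HOXA7 is shown at chr7:27156626-27156925, HOXA9 at chr7:27165488-27165787 and HOXA10 at chr7:27179812-27180111.
HOXA7: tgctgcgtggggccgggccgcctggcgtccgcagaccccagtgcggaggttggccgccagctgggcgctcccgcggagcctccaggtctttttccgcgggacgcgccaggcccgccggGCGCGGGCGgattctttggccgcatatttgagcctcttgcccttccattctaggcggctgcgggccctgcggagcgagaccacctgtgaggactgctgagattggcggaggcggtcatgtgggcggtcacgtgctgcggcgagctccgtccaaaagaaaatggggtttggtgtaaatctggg
HOXA9: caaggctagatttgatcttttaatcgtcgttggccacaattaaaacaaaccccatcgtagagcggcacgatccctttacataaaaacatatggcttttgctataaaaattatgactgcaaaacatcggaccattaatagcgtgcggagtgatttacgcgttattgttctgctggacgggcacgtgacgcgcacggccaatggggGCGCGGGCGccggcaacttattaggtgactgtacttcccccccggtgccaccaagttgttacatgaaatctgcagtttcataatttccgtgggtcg
HOXA10: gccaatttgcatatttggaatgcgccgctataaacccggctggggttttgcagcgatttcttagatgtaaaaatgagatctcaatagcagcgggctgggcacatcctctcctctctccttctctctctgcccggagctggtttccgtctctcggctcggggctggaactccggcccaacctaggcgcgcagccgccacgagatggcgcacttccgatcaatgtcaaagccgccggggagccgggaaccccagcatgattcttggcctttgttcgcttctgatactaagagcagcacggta

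The HOXA7 promoter held the EGR motif 132 bases and the HOXA9 promoter 46 bases before the start, both with the letters GCGCGGGCG, and the HOXA10 promoter did not hold it. RefSeq promoters were given for 8 of the 9 members, all but HOXA5, in 15 windows, and the motif stood in 2 of these windows. It stood in 9.43% of 35116 promoters of the same length. Windows at alternative starts of HOXA3 outnumber those of any other member, so counts of windows weigh HOXA3 most. The PBX-HOX motif TGATTNAT was in 0 of the 15 windows and in 2.82% of all promoters. The MEIS motif TGACAG was in 2 windows, those of HOXA4 and HOXA13, against 15.8% of all promoters, and the TATA box letters TATAAA in 4 windows, against 11.5%. TATAAA was counted at any position and on both strands. It lay 150 bases before the start in HOXA9, and 222 and 150 bases before it in the HOXA10 windows. In HOXA3 it lay 29 bases before the start, on the opposite strand. These matches describe the letters of the windows and say nothing of binding.

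HOXA7 was without a count in SEM::mock, against 1633, 706 and 887 counts in SEM::EGR3 replicates 1 to 3. This was 104.9, 94.7 and 97.6 CPM, a mean of 99.1 ± 5.25 CPM (SD, n = 3). The groups did not overlap, and the differences in counts among SEM::EGR3 libraries followed their totals. Set against 3 counts per library, HOXA7 of SEM::EGR3 was higher by at least 184-fold (edgeR, adjusted p = 6.99e-21). It ranked 1954 of 35410 genes by mean level in SEM::EGR3. Of its exonic bases in GENCODE release 29, 62.5% are shared with transcripts of the opposite strand, mainly HOXA-AS3, and the strand setting of counting is not given in the sources used here. HOXA-AS3 itself had 26, 5 and 9 counts in SEM::EGR3.

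HOXA9, the member most often tied to leukemic self-renewal, had counts of 1, 2 and 3 in SEM::mock, compared with 825, 360 and 491 in SEM::EGR3. Its mean rose from 0.365 ± 0.207 CPM to 51.8 ± 3.06 CPM (SD, n = 3 each). All SEM::mock libraries lay at the detection limit and no library of one line reached the other. The ratio of the summed counts, scaled to library size, was 146 with a 95% counting interval of 67.0 to 399, which covers counting error only. In the separate edgeR fit HOXA9 was called higher (adjusted p = 1.19e-19). HOXA9 shares 15.9% of its exonic bases with genes of the same strand and 13.9% with the opposite strand.

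HOXA10, which acts beside HOXA9 in progenitors, was the only member well above the limit in both lines. It had counts of 77, 74 and 75 in SEM::mock, compared with 1012, 443 and 549 in SEM::EGR3. In CPM, the libraries read 13.6, 12.3 and 14.6 in SEM::mock and 65.0, 59.4 and 60.4 in SEM::EGR3. The libraries of each line lay close together and the groups were well separated. The log2 fold change was 2.20 ± 0.09 (SE; edgeR, adjusted p = 2.20e-16), and 1312 of the 15465 tested genes had a larger log2 fold change. HOXA10 shares 9.93% of its exonic bases with genes of the same strand and 16.4% with the opposite strand.

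HOXA5, a regulator of myeloid and erythroid fate choice, had counts of 4, 5 and 6 in SEM::mock, compared with 90, 31 and 39 in SEM::EGR3. Its mean level was 0.903 ± 0.242 CPM in SEM::mock and 4.74 ± 0.901 CPM in SEM::EGR3 (SD, n = 3 each). SEM::EGR3 replicate 1 was the highest at 5.78 CPM, and the groups did not overlap. HOXA5 rose 5.43-fold, a log2 fold change of 2.44 ± 0.32 (SE; edgeR, adjusted p = 2.85e-07). None of its exonic bases are shared with another gene, as far as GENCODE annotates them.

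HOXA3, the first of the 9 members along the chromosome, had counts of 0, 2 and 2 in SEM::mock, compared with 38, 12 and 22 in SEM::EGR3, or 0.241 ± 0.211 and 2.16 ± 0.474 CPM (SD, n = 3 each). The lowest SEM::EGR3 library, replicate 2 at 1.61 CPM, was above every SEM::mock library. The ratio of summed counts was 9.42 with a 95% counting interval of 3.52 to 35.5, and the change was called (edgeR, adjusted p = 1.09e-05). The width of the interval comes from the 4 counts of SEM::mock.

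HOXA4 was without a count in SEM::mock, compared with 4, 7 and 5 counts in SEM::EGR3, a mean of 0.582 ± 0.342 CPM (SD, n = 3). It did not pass the filter. Against 3 counts per SEM::mock library it was at least 1.08-fold higher, so that the depth of SEM::mock could have hidden nearly the same level, and with a limit of 10 counts no bound above 1 remained. An exact permutation test of the CPM gave p = 0.1 (two-sided), the smallest p that 3 against 3 libraries allow. Fitted without the filter, HOXA4 was called higher (edgeR, adjusted p = 0.00395). That fit was far less strict for clear changes, with an adjusted p of 2.51e-99 for HOXA10 against 2.20e-16 in the main edgeR fit. The call of HOXA4 therefore cannot be set beside those of the main fit.

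HOXA11, used in limb and uterine development, had counts of 7, 11 and 18 in SEM::mock, compared with 22, 9 and 10 in SEM::EGR3. Its level was 1.23, 1.84 and 3.52 CPM in SEM::mock and 1.41, 1.21 and 1.10 CPM in SEM::EGR3, and the lines overlapped. It was the only member whose mean was higher in SEM::mock, by less than the spread of that line (exact permutation test, two-sided, p = 0.2, where 0.1 is the smallest possible). It did not pass the filter, and fitted without it the log2 fold change was -0.75 (edgeR, adjusted p = 0.0848). Without SEM::mock replicate 1 it passed the filter and was called lower, at a log2 fold change of -1.05 (edgeR, adjusted p = 0.0175), so 1 library decides this call.

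HOXA6 had 1 count in SEM::EGR3 replicate 1 and 0 in the other 5 libraries. HOXA13, the last gene of the cluster, had counts of 0, 0 and 1 in SEM::mock, compared with 0, 2 and 1 in SEM::EGR3. No difference was detectable for HOXA6 or HOXA13 at this depth (exact permutation test, two-sided, p = 1.0 and p = 0.7). HOXA6 lies between HOXA5 and HOXA7, so along the chromosome a member at the limit separated members that were called higher.

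The makeup of HOXA expression differed between the lines. The 9 members summed to 15.7, 15.7 and 20.5 CPM in SEM::mock and to 232.9, 210.6 and 220.6 CPM in SEM::EGR3. In SEM::mock, HOXA10 made up 78.9 ± 7.55% of the HOXA counts and HOXA11 12.2 ± 4.66% (SD, n = 3). In SEM::EGR3, HOXA7 made up 44.8 ± 0.433%, HOXA10 27.8 ± 0.416% and HOXA9 23.4 ± 0.960%, and HOXA11 only 0.560 ± 0.0552%. HOXA7, HOXA9 and HOXA10 together held 95.7% to 96.2% of the HOXA counts in the SEM::EGR3 libraries. The SEM::mock shares rest on 89, 94 and 105 counts, where 0 counts of HOXA7 allow a share of up to 3.37%, 3.19% and 2.86%, and the SEM::EGR3 shares on 3625, 1570 and 2004 counts. These limits cover counting error only.

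**Figure D2:**
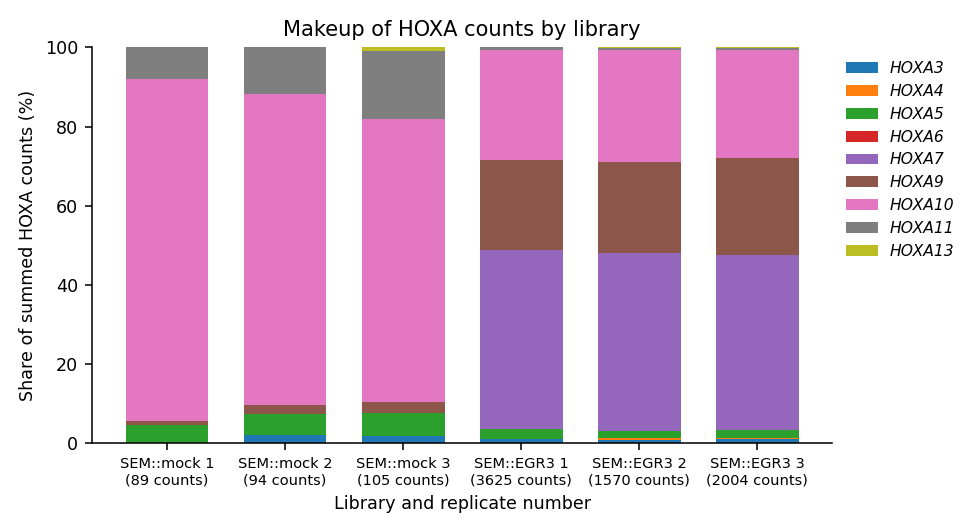
Share of each member in the summed HOXA counts (%) of the 6 libraries, with the number of HOXA counts under each bar. HOXA10 fills most of each SEM::mock bar, and HOXA7, HOXA10 and HOXA9 fill the SEM::EGR3 bars in nearly the same proportions in all 3 replicates.

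The order of the levels in SEM::EGR3 was HOXA7, HOXA10, HOXA9, HOXA5, HOXA3, HOXA11, HOXA4, HOXA13 and HOXA6. Neighbours from HOXA7 to HOXA4 in this order did not overlap over the 3 libraries, and HOXA4, HOXA13 and HOXA6 did. HOXA7 had 1.59 to 1.62 times the counts of HOXA10, and HOXA10 had 1.12 to 1.23 times those of HOXA9. Among the neighbours that did not overlap, HOXA9 had 9.17 to 12.6 times the counts of HOXA5. The order of levels was not the order of the genes along the chromosome.

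HOXA7 was also compared with all genes outside the cluster for the likeness of its levels, as the Euclidean distance over the 6 libraries in log2 (CPM + 1). The 5 nearest were PDGFRB at 0.364, SOX11 at 0.502, SIT1 at 0.569, EBF1 at 0.626 and SATB1 at 0.727. All of them had 3 or fewer counts in each SEM::mock library, and their mean levels in SEM::EGR3 ran from 85.6 CPM for SOX11 to 127.4 CPM for EBF1. Of the 17853 genes with 3 or fewer counts in each SEM::mock library, 231, HOXA7 among them, had a mean of at least 100 counts in SEM::EGR3.

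The other transcripts of the cluster were read along its length of 114.3 kb. Of 7 reported here, 4 were tested and 3 were higher in SEM::EGR3, with none lower, beside 36.5% higher and 32% lower over all tested genes. HOXA10-AS and HOXA-AS2 passed the filter only through SEM::EGR3, as 4 of the members did, so this count is also a description only. HOXA10-AS, antisense to HOXA10, had 0 counts in all SEM::mock libraries, compared with 62, 27 and 31 in SEM::EGR3, higher by at least 6.82-fold (edgeR, adjusted p = 4.79e-09). Of its exonic bases, 62.3% are shared with the opposite strand. As the strand setting of counting is not given, its counts cannot be taken as antisense RNA alone. HOXA-AS2 had counts of 0, 2 and 5 in SEM::mock, compared with 45, 13 and 19 in SEM::EGR3, a log2 fold change of 2.47 ± 0.51 (SE). With so few counts, this ran from 1.87 to 3.67 when 1 SEM::mock library was left out. HOTAIRM1, a noncoding transcript next to HOXA2, had 25, 32 and 13 counts against 170, 68 and 92, a log2 fold change of 1.29 ± 0.20 (SE). The groups did not overlap for HOXA10-AS, HOXA-AS2 and HOTAIRM1.

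HOXA11-AS had counts of 9, 11 and 10 in SEM::mock, compared with 22, 13 and 15 in SEM::EGR3, with no call (log2 fold change -0.19 ± 0.31, SE; adjusted p = 0.612). HOXA-AS3 had 0 counts in SEM::mock, did not pass the filter and exceeded the limit of SEM::mock at least 2.06-fold in SEM::EGR3. It shares 39.3% of its exonic bases with the opposite strand, so the same limit holds for its counts as for HOXA10-AS. HOXA2 had 1 count over the SEM::mock libraries and 11 over those of SEM::EGR3, a ratio of 5.75 with a 95% counting interval of 0.836 to 248. HOTTIP, beyond HOXA13, stayed at the limit in both lines.

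**Figure D3:**
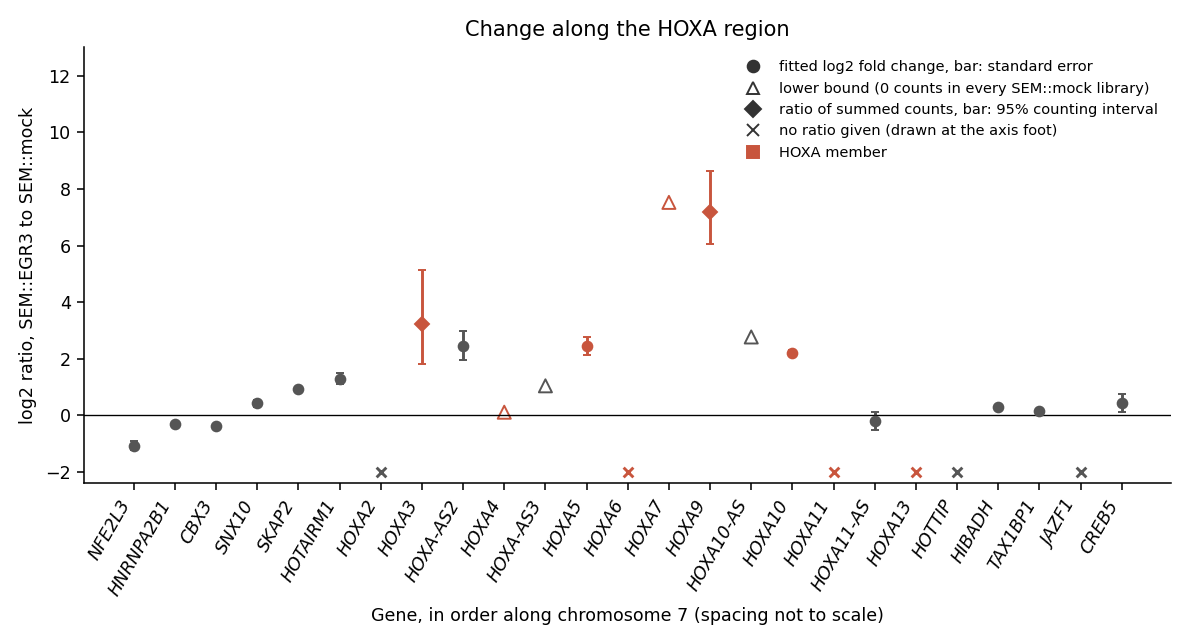
Log2 ratio of SEM::EGR3 to SEM::mock for genes of the HOXA cluster and its flanks, in their order along chromosome 7. Circles are fitted log2 fold changes with SE, and diamonds are ratios of summed counts with 95% counting intervals. Open triangles are lower bounds where SEM::mock had 0 counts. Crosses at the foot mark genes with no ratio drawn, among them HOXA2, whose ratio is given in the text. HOXA7 and HOXA9 have the highest values of the plotted genes, and the fitted values of the flanking genes lie between -1.07 for NFE2L3 and 0.93 for SKAP2.

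The flanking genes outside the cluster differed in both directions. SKAP2, an adaptor protein gene, was higher with a log2 fold change of 0.93 ± 0.08 (SE), and SNX10 at 0.42. HIBADH and TAX1BP1 were called at 0.28 and 0.15, but HIBADH lost its call without SEM::mock replicate 2 or SEM::EGR3 replicate 3 (edgeR, adjusted p = 0.189 and 0.0669), and TAX1BP1 without any 1 of the SEM::mock libraries (0.0541 to 0.114) and with DESeq2 (0.0595). NFE2L3 was lower at -1.07 ± 0.16 (SE), and CBX3 and HNRNPA2B1, the latter a splicing factor gene, were lower at -0.38 and -0.32. Of 8 flanking genes tested, 4 were thus higher and 3 lower, beside 36.5% and 32% of all tested genes, CREB5 was not called (adjusted p = 0.239), and JAZF1 was not tested.

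Genes of the other HOX clusters were mostly lower in SEM::EGR3. Of 15 HOXB, HOXC and HOXD genes tested, 12 were lower and 1 higher in SEM::EGR3, beside 32% and 36.5% of all tested genes, with a median log2 fold change of -1.58, beside a median of 0.03 over all tested genes. HOXB9, the most abundant of them, had counts of 967, 954 and 723 in SEM::mock, compared with 583, 273 and 380 in SEM::EGR3, a log2 fold change of -2.02 ± 0.07 (SE; edgeR, adjusted p = 8.58e-18). HOXB6, HOXB4, HOXB8 and HOXB2 fell by 1.99, 1.91, 1.77 and 1.65 on the log2 scale. HOXB6 reached the filter's minimum of 1.48 CPM throughout SEM::mock only, with 1.43 CPM in SEM::EGR3 replicate 3. HOXC4 was the gene that rose, at a log2 fold change of 1.22, and was named after its value was seen. Summed over these clusters, the level was 385.1 to 425.5 CPM in SEM::mock and 129.7 to 132.9 CPM in SEM::EGR3, above the HOXA sum in SEM::mock and below it in SEM::EGR3.

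Of the TALE cofactors reported here, 6 were tested, of which 4 were higher and 2 lower, beside 36.5% and 32% of all tested genes. PBX3 passed the filter only through SEM::EGR3, so its call was nearly fixed and the count of calls is a description only. PBX3, a partner of HOXA9 on DNA, had counts of 11, 7 and 5 in SEM::mock, compared with 1058, 487 and 590 in SEM::EGR3. Its log2 fold change was 5.58 (edgeR, adjusted p = 2.52e-20) and ran from 5.40 to 5.90 when 1 SEM::mock library was left out. MEIS1, the cofactor most closely tied to HOXA9 in leukemia, had counts of 53, 48 and 38 in SEM::mock, compared with 720, 332 and 456 in SEM::EGR3, a log2 fold change of 2.50 ± 0.11 (SE; adjusted p = 5.41e-16). The groups of PBX3 and MEIS1 did not overlap. MEIS3 and PKNOX1 were higher at 1.30 and 1.08 on the log2 scale, and MEIS2 was lower at -0.52. PBX2 was called at -0.66 (edgeR, adjusted p = 0.0486), but its libraries overlapped, and the call was lost in 8 of 12 alternatives, with adjusted p-values of up to 0.180. These included DESeq2, no or upper-quartile normalization factors, and leaving out SEM::mock replicate 2 or 3 (0.112 and 0.180) or SEM::EGR3 replicate 2 or 3 (0.161 and 0.0999).

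Genes described as targets of HOXA9 and MEIS1 went in both directions. Of 13 tested, 7 were higher and 5 lower, beside 36.5% and 32% of all tested genes. FLT3 and ERG passed the filter only through SEM::EGR3, and IGF1 only through SEM::mock. Their calls were thus nearly fixed, and this count is a description only. FLT3, a receptor tyrosine kinase of progenitors, had counts of 1, 0 and 4 in SEM::mock, compared with 4998, 2285 and 2961 in SEM::EGR3, a log2 fold change of 9.99 ± 0.17 (SE; edgeR, adjusted p = 2.24e-24). ERG, an ETS factor, had 0 counts in all SEM::mock libraries, compared with 174, 85 and 112 in SEM::EGR3, higher by at least 21.6-fold. SOX4 and the survival gene BCL2 were higher at 3.45 and 2.72 on the log2 scale, IGF1 was lower at -2.50, and CD34 was at the limit in both lines.

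**Figure D4:**
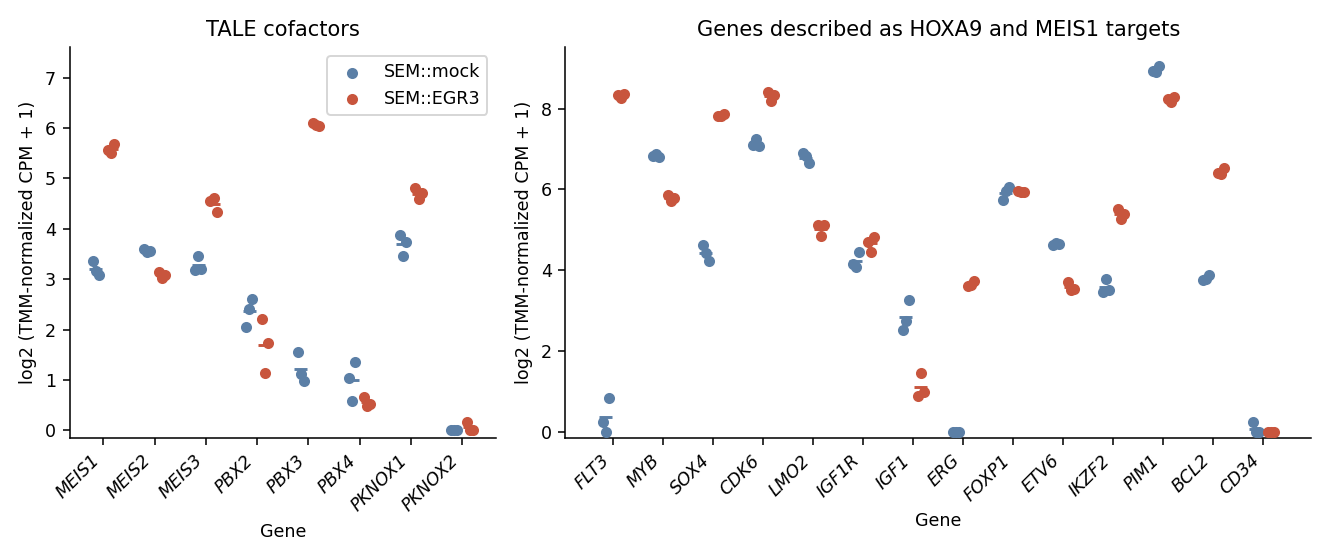
Level in log2 (TMM-normalized CPM + 1) of the TALE cofactors, left, and of genes described as HOXA9 and MEIS1 targets, right. Points are libraries, 3 of SEM::mock and 3 of SEM::EGR3, and bars are group means. PBX3 and FLT3 show the widest gaps between the lines in their panels, with MEIS2 and IGF1 lower in SEM::EGR3.

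KMT2A and its partner proteins activate the cluster. Of 24 KMT2A, menin and elongation complex genes tested, 8 were higher (33.3%) and 9 lower (37.5%), shares near the 36.5% and 32% of all tested genes, with a median log2 fold change of -0.07. KMT2A had counts of 275, 312 and 256 in SEM::mock, compared with 795, 329 and 420 in SEM::EGR3, and AFF1 had 185, 186 and 163 against 471, 225 and 276. Neither was called (edgeR, adjusted p = 0.385 for KMT2A and 0.465 for AFF1), and 3′ end counts do not separate fusion transcripts from normal ones. AFF3, a paralog of AFF1, was higher at 2.55 and MLLT3, a subunit of the elongation complex, lower at -2.13 on the log2 scale. AFF3 reached the filter's minimum of 1.48 CPM throughout SEM::EGR3 only, with 1.33 CPM in SEM::mock replicate 2. ELL2 and ASH2L were lower at -0.84 and -0.82, with PSIP1 higher at 0.77.

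Of 32 Polycomb genes tested, 16 were higher and 6 lower, beside 36.5% and 32% of all tested genes, with a median log2 fold change of 0.20. EZH2, the methyltransferase that marks silent HOX chromatin, was called at 0.17 ± 0.06 (SE; edgeR, adjusted p = 0.0199), with counts of 445, 461 and 384 in SEM::mock, compared with 1356, 626 and 790 in SEM::EGR3. The call of EZH2 was lost in 8 of 13 alternatives, among them DESeq2 (adjusted p = 0.0699) and leaving out SEM::mock replicate 2 or 3 (0.0612 and 0.102) or SEM::EGR3 replicate 1 or 3 (0.0567 and 0.0563). PHF19 and PCGF2 were lower at -1.28 and -1.06. The demethylase genes KDM6A and KDM6B, counted in this list because they oppose the mark, were higher at 0.84 and 0.74, as was PHC3 at 0.70.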

How the data were processed

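RNA of SEM::mock and SEM::EGR3, 3 replicates each, was sequenced by MACE-Seq. The deposited table of the authors holds whole-number counts per gene, the counts scaled to CPM, and a size-factor normalized signal; only the counts were used for tests. The authors' own fold changes and p-values were not used. The submitters' processing notes name bcl2fastq, Bowtie2, HTSeq and GRCh38, without versions, and the strand setting is not given in the sources used here. Counts were filtered with filterByExpr, normalized by TMM and tested with glmQLFit and glmQLFTest in edgeR 4.0.16 (R 4.3.3), with Benjamini-Hochberg adjustment over 15465 genes; the script was tested on simulated data. A gene with 0 counts in SEM::mock was given a lower bound set at 3 counts per library. One with few counts was given a ratio of summed counts with an exact binomial interval. That interval pools the replicates and leaves out the spread between them. An SE is the absolute log2 fold change divided by the square root of the F statistic of the test. It can be too small where counts are few. Levels and distances use log2 (CPM + 1). Columns headed ERG3 were read as the EGR3 line, as the titles name no other. Positions and exonic overlaps come from GENCODE release 29, which held 97.0% of the identifiers, and promoters from RefSeq GRCh38.p14. The members, gene lists and tests were chosen with earlier results of these data known. Named genes are the members, the cluster and flanking genes, up to 5 called genes of each list with the largest log2 fold change and a mean of at least 20 counts, and a few fixed regulators. A few genes of these lists are not reported here. Alternatives were DESeq2 1.42.0, no or upper-quartile normalization factors, no filter, a minimum of 10 counts per library, an adjusted p under 0.01, a limit of 10 counts, the replicate number as a block, and leaving out each library.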

Additional observations from a re-analysis of the deposited data

How the results depend on the processing

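The call of HOXA10 held in all 12 alternatives fitted, with log2 fold changes of 2.12 to 2.28. HOXA3, HOXA5, HOXA7 and HOXA9 were also called wherever they were tested. They enter the test only through SEM::EGR3, so this says nothing of their stability. HOXA10-AS, HOXA-AS2, PBX3, FLT3 and ERG entered in the same way, and IGF1 only through SEM::mock. AFF3 missed the filter's minimum of 1.48 CPM in SEM::mock replicate 2, and HOXB6 in SEM::EGR3 replicate 3. Each thus reached it throughout 1 line only. Among the other genes named, the calls of HIBADH, TAX1BP1, PBX2 and EZH2 were lost in some alternatives, and AFF1, which was not called, changed sign without normalization factors. With at least 10 counts in every library only HOXA10 was tested, so 1 member was called higher in place of 5, and 2 transcripts of the list of other cluster transcripts were called higher. The count of members called lower was 0 to 1 over the fits that left out 1 library, HOXA11 being called without SEM::mock replicate 1. Higher calls among KMT2A, menin and elongation complex genes ranged from 5 to 8 over the left-out libraries and were 5 at an adjusted p under 0.01, where 2 flanking genes were called higher. Without the filter 2 genes of the other HOX clusters were called higher, and the median of all genes shifted by 0.19 on the log2 scale. With a limit of 10 counts, the bound was 55.2-fold for HOXA7 and 0.325 for HOXA4, which is no increase. The replicate numbers did not pair the samples, with correlations of deviations of -0.138, -0.0935 and -0.0431, and with the replicate block 5 members were called higher, 0 lower, and 5388 genes higher over all tested, while TAX1BP1 and EZH2 were not called (edgeR, adjusted p = 0.0613 and 0.0512). The depth of SEM::mock limits HOXA3, HOXA4, HOXA6 and HOXA13.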
